A study of Arabidopsis thaliana with 12 samples.

Results

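The experiment asked whether seedlings that overexpress the homeodomain gene KNAT1 respond to gibberellin in the same way as wild-type seedlings of Arabidopsis thaliana. All 12 libraries of the study entered, 3 in each of 4 groups. The quantity examined, gene by gene, was the effect of gibberellic acid (GA3) in the 35S::KNAT1 line minus its effect in wild type. Both genotypes were of the Nossen accession (wild type No-0), were grown under continuous light and were sampled as whole seedlings. Seedlings 7 days old spent 18 h in 10 µM paclobutrazol (PAC), a blocker of gibberellin synthesis. They then spent 5 h either in 10 µM PAC alone or in 10 µM PAC with 100 µM GA3, so PAC was present in all 4 groups and no group was free of it. Of 32673 genes in the deposited count table, 32394 lay on chromosomes 1 to 5, and 19777 of these passed the filter on low counts and were tested. The 35S promoter is active in most cells of the plant, so the line is a model of KNAT1 outside its normal domain. The labels do not say whether the line is 1 transformant, nor whether replicates came from separate cultures. The p-values therefore measure the spread between these libraries, which may be technical.

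Gibberellins (GA) are growth hormones that bind the GID1 receptors and lead to the destruction of DELLA proteins, which otherwise hold growth-promoting transcription factors inactive. GA also acts on its own supply: with the hormone present, genes of late GA synthesis and GA receptors are repressed and genes of GA breakdown are induced. KNAT1 is a class I KNOX transcription factor that keeps cells of the shoot meristem undifferentiated, and KNOX proteins are known to repress GA synthesis there. The study's title places KNAT1 and DELLA together in the differentiation of xylem fibres.

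Libraries held between 9232836 and 14053594 counts. KNAT1 (AT4G08150) stood between 17.7 and 24.6 CPM (counts scaled to library size) in the 6 wild-type libraries and between 390 and 483 CPM in the 6 libraries of the overexpressor, so every library matched its genotype label. The share of counts on organelle genes was 0.139% to 0.263% in 9 libraries. It was higher in 3 others: 0.944% (replicate 2) and 0.676% (replicate 3) among the wild-type libraries under PAC, and 0.868% (replicate 1) among those of 35S::KNAT1 with GA3. The same 3 libraries had the highest shares of nuclear rRNA gene counts, 0.49%, 0.349% and 1.44%. Because 2 of these libraries are wild type without GA3 and 1 is the overexpressor with GA3, a transcript that is high in all 3 has a higher GA3 effect in 35S::KNAT1 than in wild type. Summed markers of green tissue ran from 49400 to 63700 CPM in wild type and from 24900 to 31700 CPM in 35S::KNAT1. Summed seed storage transcripts ran from 36.7 to 138 CPM in wild type and from 0.0829 to 0.876 CPM in 35S::KNAT1. In whole seedlings, fewer cells of a type and less RNA per cell cannot be told apart.

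DNA is shown for the 3 genes called for the difference, because 2 of them have near-identical copies in the mitochondrion. It was read from the reference genome of accession Columbia, not from Nossen. The first is the 250 bases before the annotated start of AT1G29660, which encodes a GDSL-type lipase (chr1:10371589-10371838, plus strand, TAIR10). Capitals mark the 1 match to the auxin response element TGTCTC, which lies on the opposite strand as GAGACA.
AT1G29660 upstream: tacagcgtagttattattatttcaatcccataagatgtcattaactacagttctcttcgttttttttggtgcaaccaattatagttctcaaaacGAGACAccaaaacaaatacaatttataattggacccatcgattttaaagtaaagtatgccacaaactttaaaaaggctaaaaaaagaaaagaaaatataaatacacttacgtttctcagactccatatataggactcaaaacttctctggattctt
The second is a stretch from the middle of AT2G07687, which the files describe as cytochrome c oxidase subunit III, beside the mitochondrial stretch of the same letters (chr2:3312123-3312183, plus strand, TAIR10). The mitochondrial stretch lies at 330245 to 330305 on the plus strand of the reference's mitochondrial genome. All 998 bases of the gene were identical in both.
AT2G07687 nuclear: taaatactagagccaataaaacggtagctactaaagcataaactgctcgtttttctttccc
AT2G07687 mitochondrial: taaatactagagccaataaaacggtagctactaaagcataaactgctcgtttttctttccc
The third comes from AT2G07708, a gene of unknown product (chr2:3386954-3387014, plus strand, TAIR10). Its 1643 bases differed from the mitochondrial copy at 1 position, T134G, counted from 1 at the gene's start with the nuclear base first. Capitals mark that position, and the mitochondrial stretch lies at 246770 to 246830 on the minus strand.
AT2G07708 nuclear: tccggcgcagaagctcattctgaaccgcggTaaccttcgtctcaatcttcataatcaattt
AT2G07708 mitochondrial: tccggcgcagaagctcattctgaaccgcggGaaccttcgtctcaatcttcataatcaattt
Reads from such copies cannot be told apart over nearly their whole length, and how shared reads were counted is not given in the sources used here.

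The effect of GA3 differed between genotypes for 3 nuclear genes, which is 0.0152% of those tested (edgeR quasi-likelihood test, Benjamini-Hochberg adjusted p below 0.05; 0.0101% higher and 0.00506% lower). The calls changed with the model: edgeR called no gene for the difference without a block (333 with an unadjusted p below 0.05), none with a block shared by both genotypes (584) and none with a stricter filter on low counts (604). The DESeq2 Wald test called none either (118). AT1G29660 had a lower effect in 35S::KNAT1, and AT2G07687 and AT2G07708 a higher one. At an unadjusted p below 0.05 there were 773 genes, or 3.91%, where 989 would pass by chance. Of these 344 (1.74%) were higher and 429 (2.17%) lower in the overexpressor. In 1877 genes (9.49%) the replicate-wise differences of the genotypes did not overlap, 4.35% of all genes being higher and 5.14% lower. By chance 10% of genes would show no overlap.

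AT1G29660 belongs to the GDSL lipases, a large plant family of esterases. In wild type it stood at 54.4, 33.5 and 61.4 CPM under PAC and at 60.5, 47.0 and 71.8 CPM with GA3, in the order of replicates 1 to 3. The levels in 35S::KNAT1 were 59.4, 48.6 and 61.5 CPM under PAC and 40.1, 38.8 and 44.4 CPM with GA3. The wild-type library was higher with GA3 in all 3 pairs, the 35S::KNAT1 library was lower in all 3, and the GA3 differences of the genotypes did not overlap. The log2 effect of GA3 was 0.28 ± 0.08 (SE) in wild type, which was not called (edgeR adjusted p = 0.0971). In 35S::KNAT1 the gene fell by 0.46 ± 0.08 on the log2 scale (edgeR adjusted p = 0.00667). The difference was -0.73 ± 0.11 (SE, 95% interval -0.97 to -0.50, edgeR adjusted p = 0.0279). The value stayed between -0.79 and -0.56 under 18 alternative settings, and the call held in 6 of them. It was lost without wild-type replicate 3 and without 35S::KNAT1 replicate 1, 2 or 3 (edgeR adjusted p from 0.0913 to 0.414), and with the organelle share of each library in the model it stood at -0.56 (edgeR adjusted p = 0.828). The closest other gene, the neighbour AT1G29670, was 74% identical over 910 bases.

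AT2G07687 was a gene of few counts, with summed counts of 54 and 12 in wild type under PAC and PAC+GA3 and 11 and 78 in 35S::KNAT1. Its 35S::KNAT1 levels with GA3 were 5.06, 0.901 and 0.614 CPM, so replicate 1 held 61 of the 78 counts. That library is the one with an organelle share of 0.868%. The fitted difference was 4.91 ± 0.61 on the log2 scale (SE, 95% interval 3.64 to 6.18, edgeR adjusted p = 0.00205), and without 35S::KNAT1 replicate 1 it was 3.92 and no longer called (edgeR adjusted p = 0.414). With the 3 libraries of highest rRNA share left out and no replicate block the difference of AT2G07687 was 3.02. That fit leaves replicate 1 alone in wild type under PAC. With the organelle share in the model it was 3.97 (edgeR adjusted p = 0.788). AT2G07708 stood at 2.27, 6.64 and 5.66 CPM in wild type under PAC and at 1.10, 2.81 and 2.02 CPM with GA3. In 35S::KNAT1 it stood at 1.72, 1.47 and 0.634 CPM under PAC and at 5.39, 1.53 and 1.14 CPM with GA3. Its highest libraries were the same 3 that had the highest organelle shares. The difference was 2.31 ± 0.38 (SE, edgeR adjusted p = 0.0428), and it was 0.27 with those 3 libraries left out and no replicate block. It was 1.37 with the organelle share in the model.

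Both genes lie on chromosome 2 between positions 3239657 and 3503608, in a stretch with many genes that match organelle DNA. On the whole of chromosome 2, 101 genes of the table match organelle DNA at 90% identity or more over at least 50% of their length. Counting all chromosomes there were 107 such genes, of which 8 passed the filter. In 7 of these 8 the difference had an unadjusted p below 0.05, all of them higher in 35S::KNAT1, and the median difference was 2.59 against -0.00825 over all genes tested. Such genes may have passed the filter through their counts in the 3 libraries of high organelle share. The tally therefore describes these 8 genes alone. AT2G07674 had a difference of 2.88 ± 0.81 and the plastid-matching AT2G12905 one of 2.92 ± 0.87 (SE), with edgeR adjusted p of 1 for both. With these genes left out of the table, a setting chosen after the data were seen, no gene was called by edgeR, 770 had an unadjusted p below 0.05 and AT1G29660 stood at an adjusted p of 0.0553. The part of the organelle share in these results was not tested beyond these settings.

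**Figure D1:**
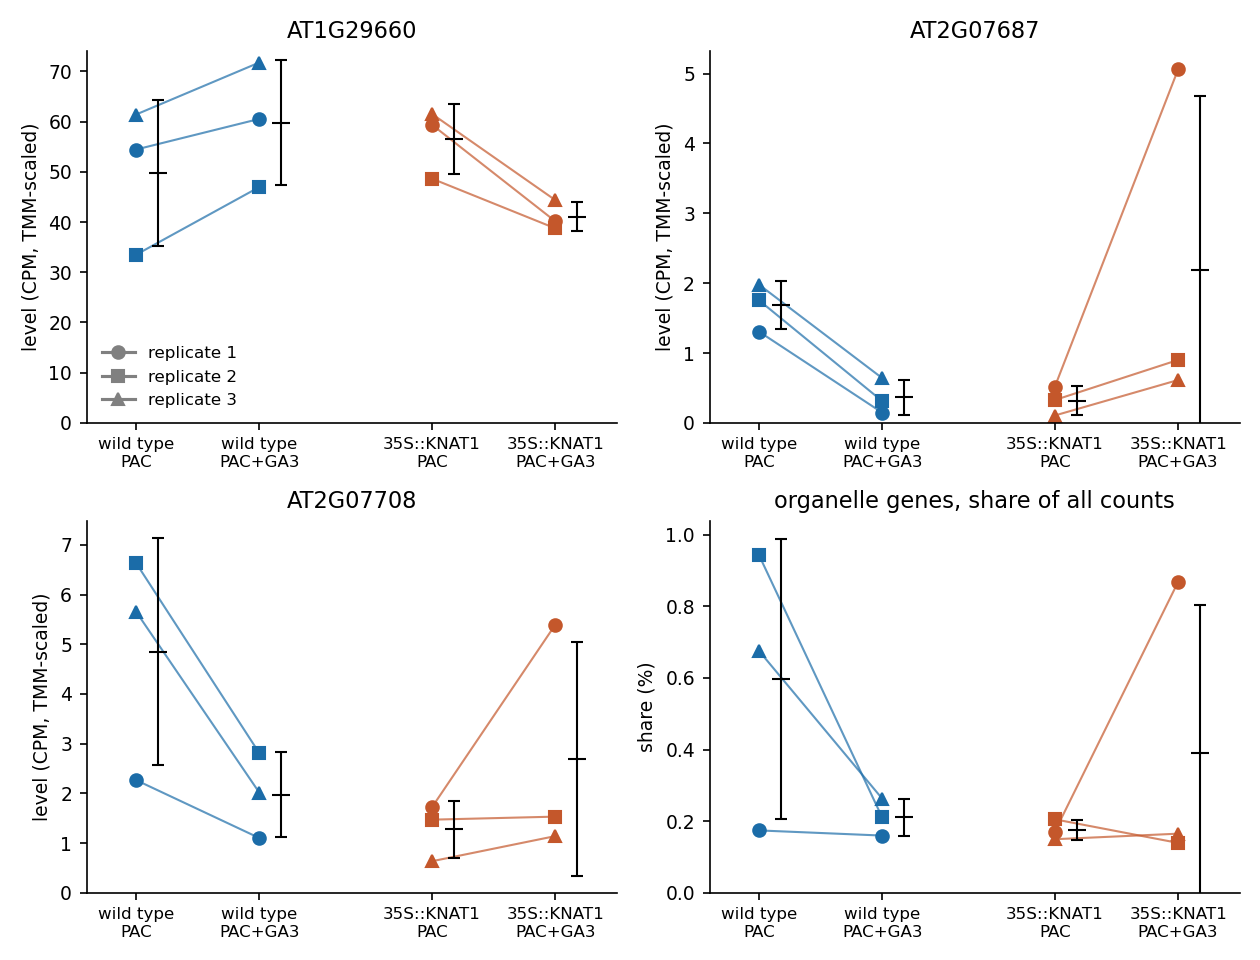
Level (CPM, TMM-scaled) of the 3 genes called for the difference, and the share of counts on organelle genes (%), in each library. Lines join the PAC and PAC+GA3 libraries of a replicate number; black ticks and bars are the mean and SD of 3 libraries, with bars cut at 0. AT1G29660 was higher with GA3 in each wild-type pair and lower in each 35S::KNAT1 pair, and both other genes peaked in libraries with a high organelle share.

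How small a difference these data could show depended on the level of the gene. The 95% interval of the difference lay within 2-fold either way in 17011 of 19777 genes (86%). This held for 98.7% of the genes whose highest group mean was between 10 and 100 CPM and for 99.5% of those above 100 CPM. It held for 59.6% of genes between 1 and 10 CPM and for 0.485% of those below. The median interval reached 0.311 on the log2 scale to either side of the estimate. In this model a difference of 2-fold was thus outside the interval for most genes above 10 CPM and inside it for many below. The intervals rest on the replicate block within genotype, a pairing the labels do not state, and are given for that model alone. Without the block, 333 genes had an unadjusted edgeR p below 0.05 for the difference, against 773 with it.

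GA3 called 272 genes in wild type (1.38% of those tested; 146 or 0.738% rose and 126 or 0.637% fell) and 163 in 35S::KNAT1 (0.824%; 71 or 0.359% rose and 92 or 0.465% fell). The lists shared 76 genes, 27.9% of the wild-type list and 46.6% of the other. In 32 of the 76 both genotypes rose, in 43 both fell, and AT2G07687 was the 1 gene called in opposite directions. Of the 272 genes, 258 had the same sign in 35S::KNAT1 and 182 also had an unadjusted p below 0.05 there, which 10.1% of all genes had (5.16% higher, 4.97% lower). Of the 163 genes, 157 had the same sign in wild type and 126 an unadjusted p below 0.05, which 14.6% of all genes had (7.73% higher, 6.87% lower). Over all 19777 genes tested, 12491 (63.2%) had the same sign in both genotypes. A call in only 1 genotype was not a call of the difference: of the 196 genes called in wild type alone and the 87 called in 35S::KNAT1 alone, 1 each was called for it, AT2G07708 and AT1G29660. Across the 19777 genes, which are not independent of each other, Pearson's r between the effects was 0.27 and Spearman's rho 0.367. Among the 76 genes called in both, the median ratio of the 35S::KNAT1 effect to the wild-type effect was 1.03. It was 0.475 and 0.462 for genes called in 1 genotype alone, taken as the effect in the other genotype over that in the calling one. Since all of these genes were picked by size and p, in both genotypes or in 1, nothing is read from any of these ratios. Without the replicate block edgeR called 17 genes in wild type and 21 in 35S::KNAT1.

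**Figure D2:**
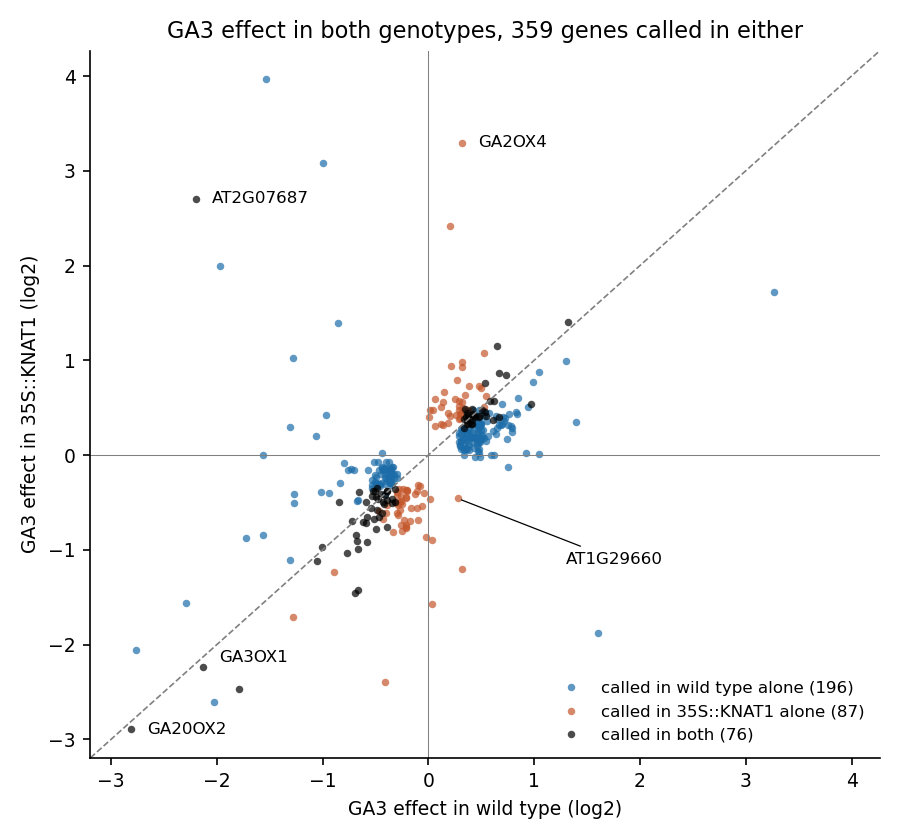
Log2 effect of GA3 in wild type (x axis) and in 35S::KNAT1 (y axis) for the 359 genes called in either genotype; the dashed line marks equal effects. Most points lie in the quadrants of equal sign, with GA20OX2 and GA3OX1 near the line, and AT1G29660 and AT2G07687 off it. Points far off the line at low counts, among them the unlabelled point near 4 on the y axis (OLEO2, with 0 counts in all 35S::KNAT1 PAC libraries), are fitted values that depend on few reads.

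GA20OX2 and GA3OX1, genes of late GA synthesis, fell after GA3 in both genotypes. Their values were of about the same size in the model with a block within genotype. GA20OX2, a GA 20-oxidase (AT5G51810), stood at 3.49, 8.79 and 7.45 CPM in wild type under PAC and at 0.735, 0.833 and 1.10 CPM with GA3. The 35S::KNAT1 libraries stood at 4.64, 8.83 and 8.99 CPM under PAC and at 0.747, 1.26 and 0.965 CPM with GA3. The levels of both genotypes overlapped in each medium, and no library with GA3 reached the lowest without it. The log2 changes were -2.81 ± 0.24 and -2.89 ± 0.23 (SE, edgeR adjusted p = 3.73e-06 and 7.98e-07), and their difference was -0.08 (95% interval -0.91 to 0.74). GA3OX1, the GA 3-oxidase that makes active GA, changed by -2.13 ± 0.25 in wild type and -2.24 ± 0.27 in 35S::KNAT1, with a difference of -0.11 (95% interval -0.94 to 0.73). Both intervals are wide, since these genes were of low level. Over 18 alternative settings the difference ran from -0.77 to 0.15 for GA20OX2 and from -0.81 to 0.31 for GA3OX1. The median of the list was -0.49 with the organelle share in the model. It was also -0.49 with the 3 libraries of highest rRNA share left out and no block. GA3OX2, another GA 3-oxidase, was near 1 CPM and was not called in either genotype, and the other 6 genes of this list, GA20OX1 among them, did not pass the filter. The early enzymes GA2, GA3, CYP88A3 and KAO2, which make the GA precursors, had differences from -0.07 to 0.20 and were not called in any comparison.

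Among the GA receptors, GID1A fell by 0.49 ± 0.09 on the log2 scale in wild type and by 0.57 ± 0.09 in 35S::KNAT1, and GID1B fell by 0.72 ± 0.14 and by 0.70 ± 0.16 (SE). The differences were -0.09 (95% interval -0.35 to 0.18) and 0.02 (95% interval -0.42 to 0.46). SCL3, a GRAS protein that acts with DELLA proteins in GA feedback, stood at 23.7, 24.0 and 26.3 CPM in wild type under PAC and at 13.1, 12.7 and 11.1 CPM with GA3. In 35S::KNAT1 it went from 16.8, 23.9 and 24.1 CPM to 11.1, 10.2 and 11.6 CPM. It fell by 1.00 ± 0.12 and by 0.97 ± 0.12 on the log2 scale, and the difference was 0.04 (95% interval -0.31 to 0.39). Of the DELLA genes, GAI rose by 0.44 ± 0.08 and 0.40 ± 0.08. RGL1 rose by 0.76 ± 0.12 in wild type (edgeR adjusted p = 0.00159), and in 35S::KNAT1 its change of 0.44 ± 0.12 was not called (edgeR adjusted p = 0.0945). The difference for RGL1 was -0.32 with a 95% interval of -0.67 to 0.03, and -0.18 with the 3 libraries of highest rRNA share left out and no block. SLY1, the F-box gene through which DELLA proteins are destroyed, fell by 0.53 ± 0.11 in 35S::KNAT1 and stood at -0.29 ± 0.12 in wild type, where it was not called, with a difference of -0.24 (95% interval -0.57 to 0.09). All 11 receptor, DELLA and related genes were tested, none was called for the difference, and all 11 intervals lay within 2-fold.

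GA 2-oxidases inactivate GA. GA2OX6 rose in both genotypes, by 0.67 ± 0.15 and 0.86 ± 0.17 on the log2 scale (SE). GA2OX4 gave the widest gap of the GA genes. It held 2, 7 and 14 counts in wild type under PAC and 8, 14 and 7 with GA3. In 35S::KNAT1 it held 0, 3 and 1 counts under PAC and 12, 12 and 21 with GA3. The 35S::KNAT1 libraries did not overlap between media, the wild-type ones did, and the GA3 differences of the genotypes did not overlap. The gene rose in 35S::KNAT1 by 3.30 ± 0.67 (SE, edgeR adjusted p = 0.0174), a size that rests on 4 counts under PAC. The difference was 2.98 ± 0.89 (95% interval 1.11 to 4.84), with an unadjusted p of 0.00336 and an edgeR adjusted p of 1. It lay between 1.26 and 4.26 over 17 alternative settings and was called in none. GA2OX2 and GA2OX8 had differences of -0.19 ± 0.34 and 0.33 ± 0.44.

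**Figure D3:**
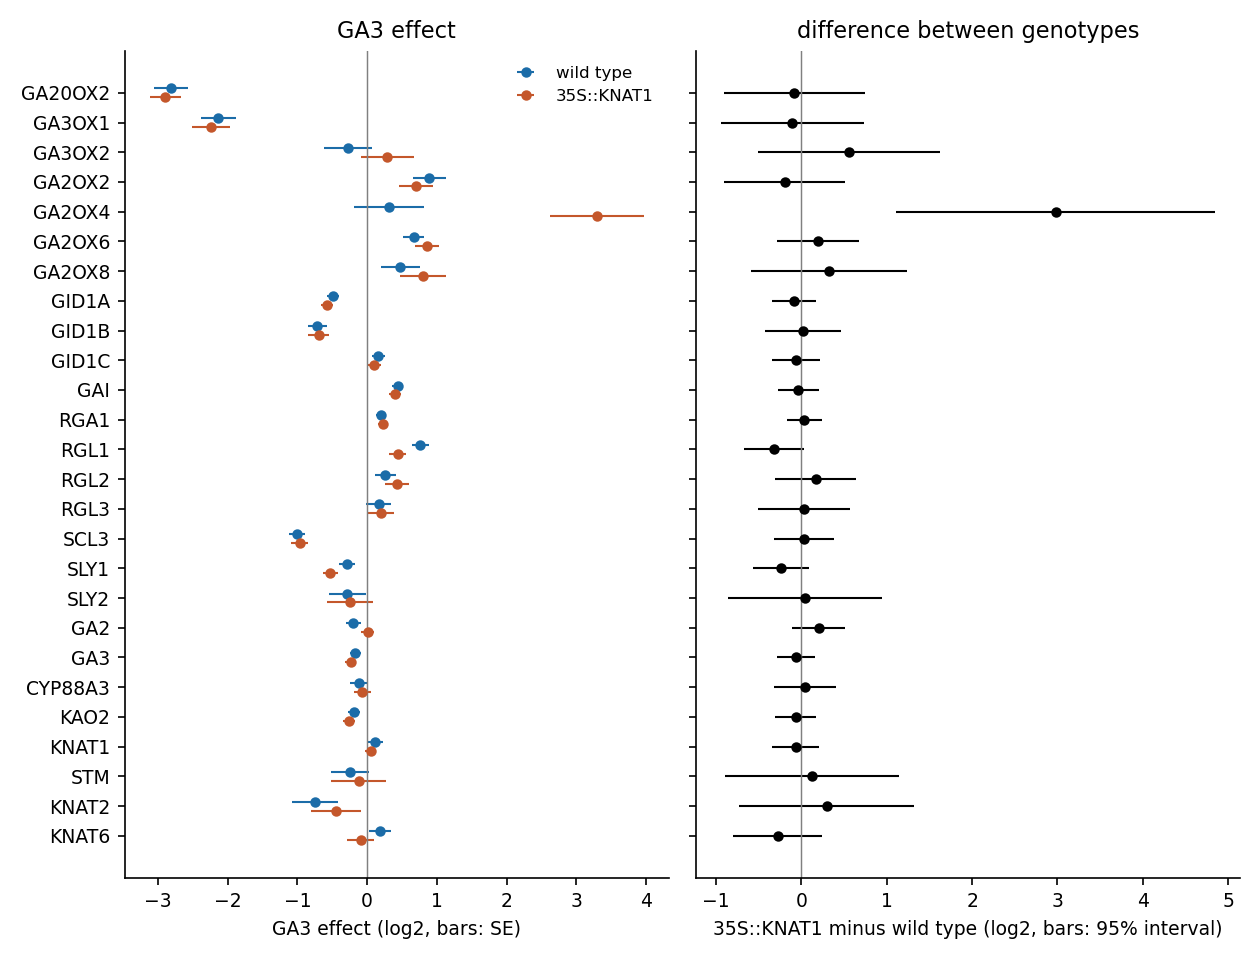
Log2 effect of GA3 in each genotype with its SE (left), and the difference between genotypes with its 95% interval (right), for GA synthesis, breakdown and signalling genes and the class I KNOX genes. The interval excludes 0 for GA2OX4 and includes it for the other genes plotted.

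KNAT1 itself was not called for GA3, at 0.12 ± 0.11 in wild type and 0.05 ± 0.08 in 35S::KNAT1 on the log2 scale (SE), with a difference of -0.07 (95% interval -0.34 to 0.20). Counts of the transgene and of the endogenous gene are summed in this value. The class I KNOX genes STM, KNAT2 and KNAT6, which act in the meristem, were below 10 CPM in all libraries and had differences from -0.28 to 0.30. CYP78A5, a cytochrome P450 gene that promotes organ growth from the organ base, stood at 6.79, 6.38 and 5.29 CPM in 35S::KNAT1 under PAC and at 12.7, 10.9 and 13.2 CPM with GA3. In wild type it stood at 7.59, 12.4 and 9.90 CPM and at 12.6, 14.1 and 10.2 CPM. The gene rose in 35S::KNAT1 by 0.98 ± 0.15 (SE, edgeR adjusted p = 0.00184), and the wild-type change of 0.32 ± 0.14 was not called. The difference was 0.67 ± 0.20 (95% interval 0.24 to 1.09), with an unadjusted p of 0.0039 and an edgeR adjusted p of 1, and it was 0.27 with the 3 libraries of highest rRNA share left out and no block. CYP78A7, a gene of the same family, had a difference of -0.51 ± 0.23, in the other direction, so the 5 tested CYP78A genes had no common sign. CKX1, a cytokinin oxidase, rose in 35S::KNAT1 by 1.08 ± 0.14 and stood 0.52 ± 0.16 higher in wild type, where it was not called, with a difference of 0.55 ± 0.22.

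No list had a member called for the difference, and some had medians away from 0. The 46 tested SAUR genes, short-lived transcripts induced by auxin and tied to cell expansion, had a median difference of -0.287 on the log2 scale, with 36 of 46 lower in 35S::KNAT1. Over all genes the median was -0.00825 and 52.3% were lower. An unadjusted p below 0.05 in the lower direction was held by 10 of the 46 (21.7%), against 2.17% of all genes. In the higher direction it was held by 1 of the 46 (2.17%), against 1.74% of all genes. Among the 10 are AT1G29460, AT1G29500 and SAUR68 of 1 gene cluster, so the 10 are not independent of each other. Of the 46 intervals, 15 lay within 2-fold. By replicate, the median effect of GA3 on the 46 SAUR genes was 0.131, 0.356 and 0.208 in wild type and -0.0496, -0.236 and 0.0827 in 35S::KNAT1, so every wild-type value lay above every value of the overexpressor. SAUR68 stood at 1.22, 2.05 and 3.21 CPM under PAC and at 2.35, 3.64 and 3.39 CPM with GA3 in wild type. SAUR68 in 35S::KNAT1 stood at 2.41, 1.8 and 2.64 CPM and at 0.995, 0.811 and 1.84 CPM. Its difference was -1.48 ± 0.38 (SE, unadjusted p = 0.000917, edgeR adjusted p = 0.907). The neighbouring SAUR gene AT1G29500 had a difference of -1.07 ± 0.32. SAUR68 was 91.7% identical over 552 bases to AT1G29440 of the same cluster, so reads may have been split between them. Of the 79 SAUR genes in the table, 33 did not pass the filter, and the median stayed below 0 in 18 of 18 alternative settings, from -0.443 to -0.134.

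Some growth and hormone lists had medians of the same sign, and others were near 0 or above it: genes of the GH3 family had a median of -0.0372 (4 of 9 higher), helix-loop-helix genes of growth control -0.0299, GA receptors and DELLA genes 0.0219 and GA 2-oxidases 0.261. The 23 tested Aux/IAA genes, which encode repressors of auxin response, had a median of -0.15 with 20 lower, and IAA14 and SHY2 had differences of -0.51 ± 0.18 and -0.37 ± 0.13. All 9 tested type-A response regulators, which are induced by and dampen cytokinin signalling, were lower, with a median of -0.218, 2 of them with an unadjusted p below 0.05. Their median effect of GA3 by replicate was 0.407, -0.0143 and 0.162 in wild type and -0.223, -0.254 and 0.0496 in 35S::KNAT1, so the genotypes overlapped. The replicate medians of expansins, XTH genes and cuticle genes overlapped as well, and those of Aux/IAA genes did not (0.156, 0.136 and 0.228 against -0.0928, -0.044 and 0.11). ARR4 fell by 0.32 ± 0.07 on the log2 scale in 35S::KNAT1, stood at -0.10 ± 0.07 in wild type, and had a difference of -0.22 ± 0.10. Of 24 expansins, which loosen walls, 16 were lower with a median of -0.169, and 5 had an unadjusted p below 0.05 in that direction and EXPA18 in the other. Of 28 XTH genes, which remodel xyloglucan, 20 were lower with a median of -0.128. XTH6 rose in wild type by 0.34 ± 0.08 and had a difference of -0.29 ± 0.11, and XTH32 fell in 35S::KNAT1 by 0.58 ± 0.09 and had a difference of -0.31 ± 0.12, which was -0.51 with the organelle share in the model. The XTH median was 0.0173 in 1 of 18 settings and below 0 in the others. The expansin median was -0.0213 with the organelle share in the model, -0.0705 without 35S::KNAT1 replicate 1 and -0.0881 without wild-type replicate 1, and those of Aux/IAA genes and type-A regulators ran from -0.199 to -0.104 and from -0.352 to -0.165.

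EXPA8 was the expansin of smallest p. It stood at 21.9, 16.9 and 31.8 CPM in wild type under PAC and at 33.6, 27.4 and 46.8 CPM with GA3. The 35S::KNAT1 levels were 12.9, 11.4 and 18.7 CPM and 12.2, 13.7 and 16.9 CPM. The gene rose in each wild-type pair, by 0.62 ± 0.09 in all (SE, edgeR adjusted p = 0.000806), and in 35S::KNAT1 the change was 0.00 ± 0.10. The difference was -0.61 ± 0.14 (95% interval -0.90 to -0.33, edgeR adjusted p = 0.535). EXPA18, a root hair expansin, had a difference of 0.43 ± 0.17 and rose in 35S::KNAT1 by 0.47 ± 0.11. That difference was 0.18 with the organelle share in the model.

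Cuticle and wax genes had a median of -0.174 with 9 of 10 lower. KCS1, an elongase of very long fatty acids, rose in wild type by 0.48 ± 0.08 (SE) and had a difference of -0.41 ± 0.11. KCS6, an elongase of wax synthesis, was called in neither genotype and had a difference of -0.29 ± 0.10. The latter was -0.10 with the 3 libraries of highest rRNA share left out and no block. Green tissue markers were lower in 11 of 11 by a median of -0.113, none with an unadjusted p below 0.05, and that median was -0.00735 without wild-type replicate 2. Their level also differed by genotype under PAC, as given above, and its part in the lists was not tested. Flavonoid genes had a median of the other sign, 0.206, with 8 of 11 higher. In wild type TT4, FLS1, LDOX, DFR and UF3GT fell (5 of 11, against 0.637% of all genes), and in 35S::KNAT1 LDOX did (1 of 11, against 0.465%). The members did not share a sign. LDOX and DFR, late enzymes of anthocyanin synthesis named here after their values were seen, had differences below 0. LDOX fell by 1.79 ± 0.23 in wild type and by 2.46 ± 0.38 in 35S::KNAT1, with a difference of -0.67 ± 0.47. DFR stood at -2.02 ± 0.34 and -2.61 ± 0.66, with a difference of -0.58 ± 0.78. UF3GT, a later glycosyltransferase, had a difference of 0.71 ± 1.72, and TT5 one of -0.07 ± 0.13. TT4, the chalcone synthase that opens the pathway, fell in wild type by 0.50 ± 0.08, stood at -0.21 ± 0.08 in 35S::KNAT1, where it was not called, and had a difference of 0.29 ± 0.11, which was 0.16 with the 3 libraries of highest rRNA share left out and no block. F3H, flavanone 3-hydroxylase, had a difference of 0.29 ± 0.12 and was called in neither genotype. Annotated genes on the other strand overlap both TT4 and F3H, so their reads are uncertain without a known strand setting. The median of the list stayed between 0.165 and 0.288 in 18 of 18 settings.

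The secondary wall and lignin lists, tied to the study's subject of xylem fibres, had no member with an unadjusted p below 0.05. The 12 tested cellulose and xylan genes of the secondary wall had a median of 0.00145, with 6 higher and 6 lower. The 19 lignin genes had a median of 0.0173, all 19 intervals lay within 2-fold, and 12 were higher. Of the 19 secondary wall regulators 9 passed the filter, with a median of -0.152, and NST1, NST2 and SND1, the fibre regulators, were among the 10 that did not. The 11 tested BELL genes, partners of KNOX proteins, had a median of 0.00333 and the 8 organ boundary genes one of -0.00869. The 12 clock genes had a median of -0.0205. The 7 meristem and cell cycle markers had one of -0.00971, and the 8 xylem and phloem markers one of 0.0542, with the phloem gene SEOR1 at 0.28 ± 0.11 (SE, unadjusted p = 0.021; 0.06 with the 3 libraries of highest rRNA share left out and no block).

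**Figure D4:**
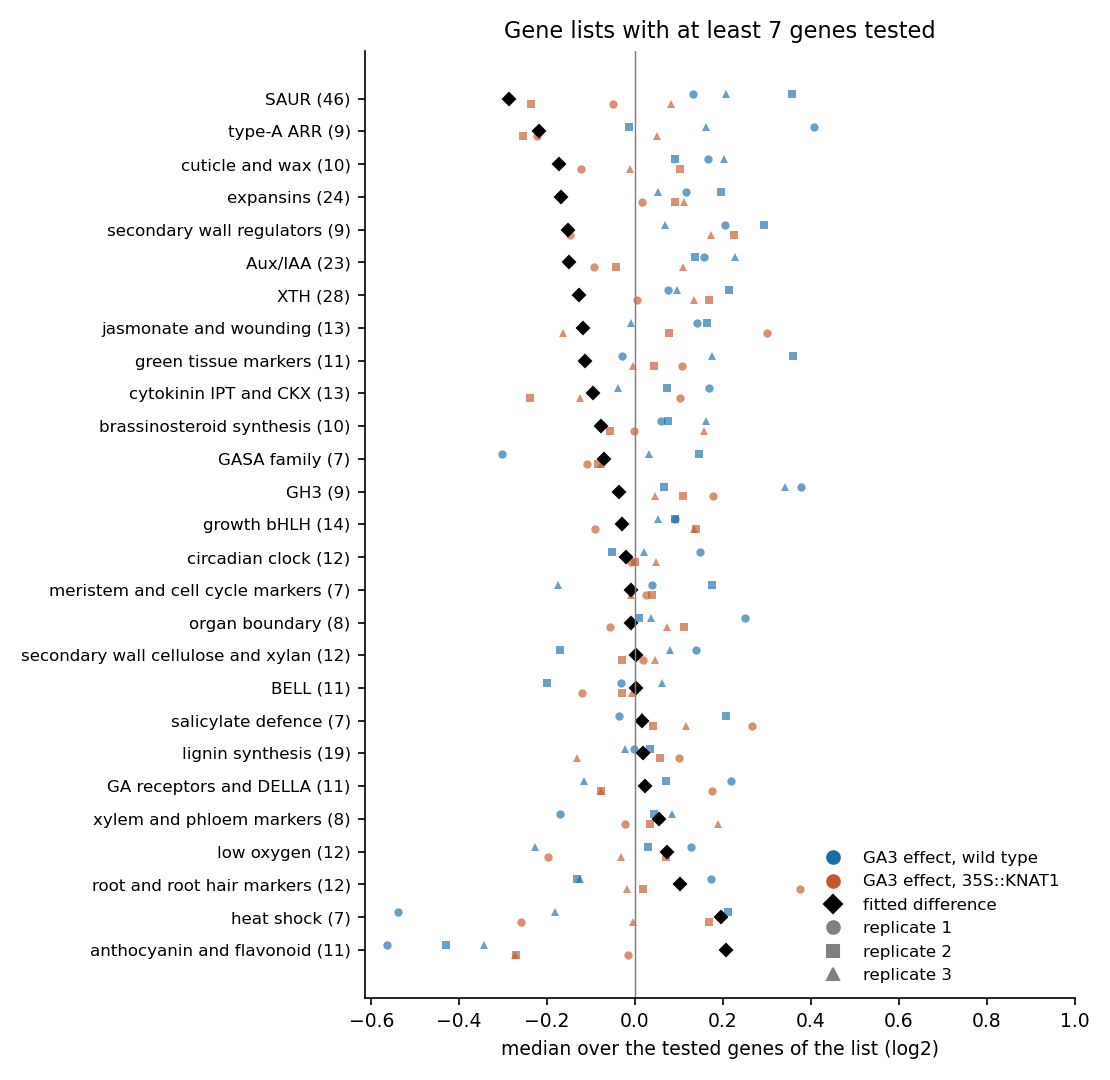
Gene lists with at least 7 tested genes (number in brackets). Blue and orange points are the median log2 difference of PAC+GA3 and PAC within each replicate number in wild type and in 35S::KNAT1, and black diamonds the median fitted difference between genotypes. Among these lists, SAUR genes have the lowest fitted median at -0.287 and flavonoid genes the highest at 0.206.

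The single genes of smallest p were chosen among those with a symbol, a group mean of at least 1 CPM and replicate-wise differences that did not overlap. They are a description, since none was called. Among the 10 with a higher effect in 35S::KNAT1 several fell in wild type and were near no change in the overexpressor. GLL22, a GDSL-type lipase gene, stood at 149, 127 and 155 CPM in wild type under PAC and at 107, 91 and 104 CPM with GA3. The 35S::KNAT1 libraries held 149.5, 179 and 165 CPM and 169.5, 156 and 144 CPM. All wild-type libraries with GA3 lay below all other libraries of this gene. A near copy, AT1G54010, is 88.8% identical to it over 1091 bases, so reads may have been split. The gene fell in wild type by 0.52 ± 0.08 (SE, edgeR adjusted p = 0.00141), and the difference was 0.45 ± 0.11 (95% interval 0.22 to 0.67, edgeR adjusted p = 0.744). GMI1, induced by DNA damage, fell in wild type by 0.73 ± 0.12, with a difference of 0.59 ± 0.17, and BGLU33, a beta-glucosidase, by 0.44 ± 0.09, with a difference of 0.47 ± 0.13. PGAZAT, a polygalacturonase of abscission zones, stood at 4.01, 10.8 and 8.11 CPM in wild type under PAC and at 3.45, 4.79 and 3.02 CPM with GA3. It fell there by 0.97 ± 0.20, and the difference was 1.39 ± 0.30 (edgeR adjusted p = 0.526). Its highest libraries were wild-type PAC replicates 2 and 3, which had high organelle shares, and GH9B15, a cellulase-family gene, was highest in the same ones at 8.98 and 8.49 CPM. The difference for GH9B15 was 1.27 ± 0.35, and -0.29 with the 3 libraries of highest rRNA share left out. PEPC1, PDF1.2c, EMB2758 and MYB47 were called in neither genotype and had differences of 2.71 ± 0.67, 1.99 ± 0.57, 0.83 ± 0.24 and 0.87 ± 0.25. PEPC1 held 7 counts in all in 35S::KNAT1 under PAC and 26 with GA3, and PDF1.2c held 15 and 33. Leaving out the 3 libraries of highest rRNA share, with no block, the difference of PGAZAT was 0.55 and that of BGLU33 was 0.10. Without wild-type replicate 1 PGAZAT was called, at 1.72 (edgeR adjusted p = 0.0435). With the organelle share in the model, GLL22 stood at 0.27 and PDF1.2c at 1.22.

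Among the 10 with a lower effect in 35S::KNAT1, 5 rose in wild type: EXPA8, KCS1, RCI2A, RGF9 and CYP705A5. RGF9, a root meristem growth factor peptide gene, stood at 7.5, 7.03 and 9.05 CPM under PAC and at 12.5, 11.7 and 21.4 CPM with GA3 in wild type. Its 35S::KNAT1 levels were 8.42, 7.60 and 7.51 CPM and 7.05, 7.12 and 10.1 CPM. The gene rose in wild type by 0.93 ± 0.14 (SE, edgeR adjusted p = 0.00141), the change in 35S::KNAT1 was 0.02 ± 0.15, and the difference was -0.90 ± 0.21 (95% interval -1.33 to -0.47, edgeR adjusted p = 0.564). RCI2A, a small membrane protein gene induced by cold and salt, rose by 0.44 ± 0.08 with a difference of -0.46 ± 0.11, and a gene on the other strand overlaps it, as for CT-BMY, ATL15 and BGLU19. CYP705A5, of the thalianol gene cluster, rose by 0.59 ± 0.10 with a difference of -0.59 ± 0.14. The other 5, RTFL16, CT-BMY, RD22, SAUR68 and ATL15, were called in neither genotype and had differences from -1.48 to -0.40. Leaving out the 3 libraries of highest rRNA share, with no block, the difference was -0.10 for CYP705A5, -0.09 for KCS1, -0.11 for ATL15, -0.17 for RD22, -0.25 for CT-BMY and -0.28 for RCI2A. EXPA8, RGF9 and RTFL16 stayed within 1.5-fold of their values in all 18 settings run. SAUR68 ran from -2.09 to -1.30 over the 17 settings in which it was fitted. In the promoter windows (250 bases before to 50 after the start), TGTCTC on either strand was found in 4 of these 10 genes and in 1 of the 10 with a higher effect, and in 16.2% of the promoters of all tested genes. The KNOX core TGACAG was found in 0 and 1 of the 10, and in 7.0% of all. The GA response element TAACAAA was found in 1 and 1 of the 10, and in 16.6% of all. For the G-box CACGTG, the last of the 4 motifs searched, it was 0 and 1 of the 10, and 9.4% of all. These counts were not tested.

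**Figure D5:**
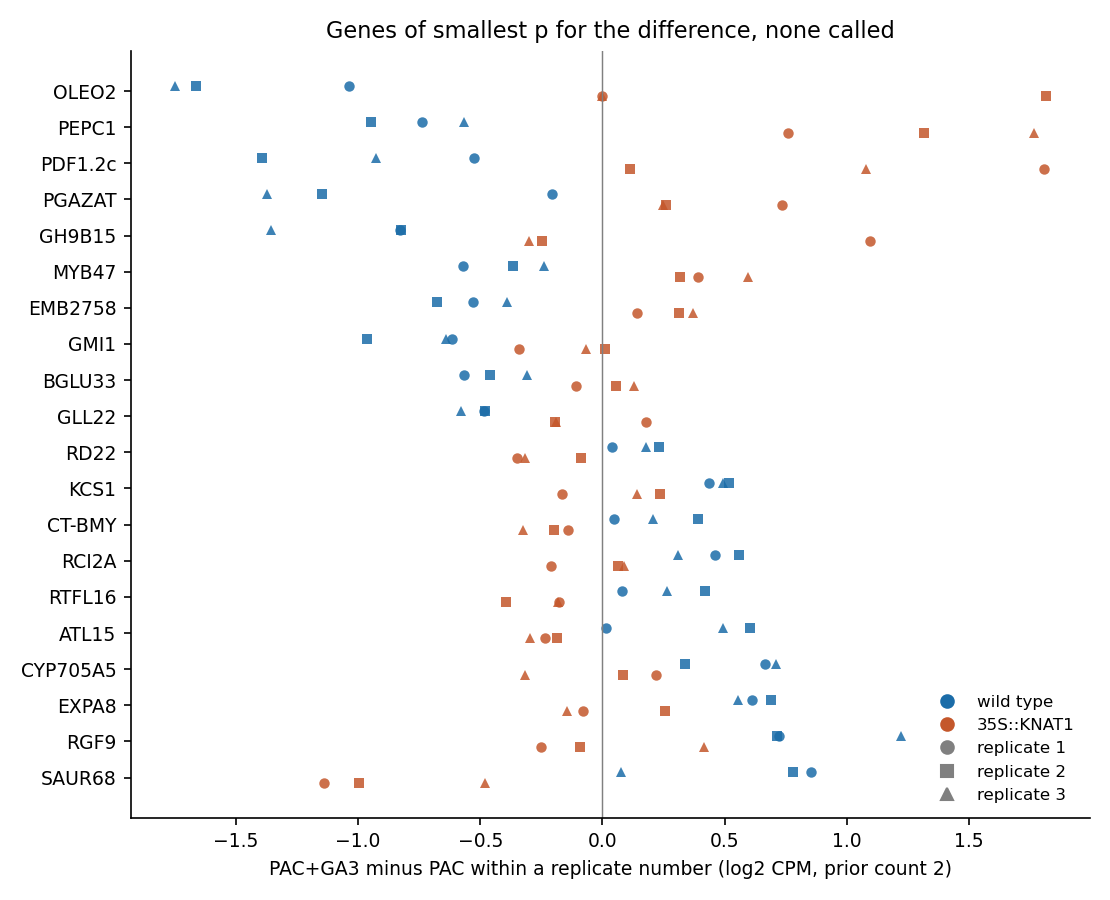
Difference of PAC+GA3 and PAC within each replicate number (log2 CPM, prior count 2) for the 20 genes of smallest p, in wild type (blue) and 35S::KNAT1 (orange). By the rule of choice the colours do not overlap within a gene; the edgeR test called none of the 20 for the difference.

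Genes called for GA3 in either genotype included some with wide differences, several of them at few counts. BGLU19, a beta-glucosidase of seeds, fell in wild type from 11.2, 7.91 and 20.8 CPM to 6.83, 4.58 and 10.3 CPM, a change of -0.86 ± 0.15 (SE). The gene held 3 counts in all under PAC and 9 with GA3 in 35S::KNAT1, and OLEO2, an oleosin of seed oil bodies, held 0 and 5. OLEO2 fell in wild type by 1.53 ± 0.24, and no fold is given for 35S::KNAT1. OLEO2 is one of the seed storage transcripts, whose summed level is given above, and the differences of both genes set a wild-type change beside almost no reads. TAT3, a tyrosine aminotransferase induced by jasmonate, rose in wild type by 1.39 ± 0.21 and had a difference of -1.04 ± 0.37. PRE1, a growth-promoting helix-loop-helix gene, rose in wild type by 1.04 ± 0.22 and had a difference of -1.03 ± 0.41. NAP, a NAC factor of leaf senescence, fell in 35S::KNAT1 by 1.57 ± 0.33 with a difference of -1.61 ± 0.49, and AIG1, a defence gene, by 1.20 ± 0.22 with a difference of -1.52 ± 0.71. In wild type AIG1 stood between 0.183 and 0.660 CPM, so its change there of 0.32 ± 0.66 rests on few reads. The 7 tested genes of the GASA family, GA-regulated peptides, had a median of -0.0698 with 4 lower, and the pair of smallest p is given. GASA5 fell in both genotypes, by 0.69 ± 0.17 and by 1.46 ± 0.25, with a difference of -0.76 ± 0.31. GASA1 fell in 35S::KNAT1 by 0.40 ± 0.08 with a difference of -0.36 ± 0.12, which was -0.06 with the 3 libraries of highest rRNA share left out and no block. The difference of PRE1 was -0.00 with the organelle share in the model, that of TAT3 was -0.66 there, that of GASA5 was -0.47 without 35S::KNAT1 replicate 3, and that of AIG1 was -2.55 without wild-type replicate 3. For all of these the edgeR adjusted p of the difference was 1.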

How the data were processed

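RNA-seq counts of whole seedlings were analysed in 12 libraries. The deposited table holds unnormalised whole-number counts for each gene, with 1 column per library. Per the submitters' processing notes, the build was TAIR10 and the tools were TopHat2 2.1 (alignment software), edgeR 3.0.2, DESeq2 1.16.1, FastQC 0.11.5 and cutadapt 1.8.3, without stated roles. No source used here gives the tool that counted reads or its strand setting. Per the labels' protocols, RNA extraction is described with Trizol in one place and RNeasy in another, and the kit as TruSeq Stranded mRNA in one and TruSeq RNA in another. Without a known strand setting, overlapping genes on opposite strands cannot be told apart.

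Sample titles gave the group and the replicate number of each library. Replicates differed by more than sampling noise (chi-square per degree of freedom from 3.475 to 12.37), so none was a copy. Deviations from the group means correlated between PAC and PAC+GA3 libraries of the same number, at 0.343, 0.18 and 0.27 in wild type and at 0.194, 0.178 and 0.183 in 35S::KNAT1. Between genotypes they were 0.275, 0.193 and 0.132 for the PAC libraries, about as large as within 35S::KNAT1. Over all pairs of groups from different genotypes, replicate 1 ran from 0.145 to 0.275. The ranges were -0.0272 to 0.193 for replicate 2 and 0.0774 to 0.132 for replicate 3. The block was set within genotype; pairing across genotypes cannot be told from these values, the labels state none, and the block shared by both genotypes was run as an alternative.

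Nuclear genes were filtered with edgeR's filterByExpr (minimum count 10) and scaled by TMM. The quasi-likelihood model with robust dispersions (edgeR 4.0.16, R 4.3.3) held 6 blocks, 1 per replicate number within genotype, and a GA3 effect per genotype. It left 4 residual degrees of freedom per gene before sharing across genes, and the common biological coefficient of variation was 6.56%. p-values were Benjamini-Hochberg adjusted over 19777 genes, and calls used 0.05. CPM values are TMM-scaled. An SE is the log2 change over the square root of its F statistic. The script was checked on simulated counts. DESeq2 1.42.0 served as an alternative, as did other blocks, scalings and filters, organelle rows, the organelle share as a covariate, and leaving out libraries. Gene bodies were compared with organelle DNA by BLAST 2.17.0. Of 32673 genes, 31901 had their locus in RefSeq's TAIR10.1 annotation, whose nuclear chromosomes are those of TAIR10, and all 31901 overlapped it by position.

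The 33 gene lists and the members were chosen with earlier results of these data known. Named genes were drawn from a rule: all genes called for the difference, the 10 of smallest p per direction (with a symbol, a mean of 1 CPM in a group and no overlap), all tested GA synthesis, breakdown, receptor, DELLA, class I KNOX and CYP78A genes, 2 genes per other list, and the 5 largest differences per direction among genes called for GA3 in either genotype whose interval excludes 0.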

Additional observations from a re-analysis of the deposited data

Results flagged for a closer look

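The effect of GA3 differed between genotypes by the edgeR test of the difference itself in 3 genes. For AT1G29660 the difference was -0.733 on the log2 scale, with the wild-type library higher with GA3 in 3 of 3 pairs and the 35S::KNAT1 library lower in 3 of 3. For AT2G07687 it was 4.91 and for AT2G07708 2.31, and both match mitochondrial DNA over their whole length. Organelle genes, which the comparison leaves out, took 0.868% of counts in 35S::KNAT1 PAC+GA3 replicate 1, above the 0.205% of the highest 35S::KNAT1 library under PAC. The part of that share in the differences was not tested beyond the settings given.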

How the results depend on the processing

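The difference was called for 3 genes, and GA3 for 272 genes in wild type and 163 in 35S::KNAT1. Without the replicate block these counts were 0, 17 and 21, with 333 unadjusted p below 0.05 for the difference. With a block shared by both genotypes they were 0, 138 and 96. The DESeq2 Wald test gave 0, 116 and 65, with 118 unadjusted p below 0.05 for the difference. The difference count was 1 with total-count scaling, 0 with the stricter filter (604 unadjusted), and 0 without genes matching organelle DNA (770 unadjusted). With the organelle share as a covariate the counts were 1, 86 and 215, and the 1 gene was EXO (1.04, edgeR adjusted p = 0.0136), named after its value was seen, and none of the 3. With no block and the 3 libraries of highest rRNA share left out, edgeR gave 0, 0 and 9, with 357, 1103 and 926 unadjusted. Leaving out each replicate pair gave 0 to 3 genes for the difference, 36 to 346 in wild type and 23 to 345 in 35S::KNAT1. The lowest were without 35S::KNAT1 replicate 1 for the difference, without wild-type replicate 3 for wild type and without 35S::KNAT1 replicate 3 for 35S::KNAT1. The cause was not tested. No result called for the difference changed sign under any setting run. DESeq2 size factors, no filter, all rows and no rRNA genes kept all 3 counts within 1.5-fold. Few libraries per group and low counts limit the difference for genes under 10 CPM.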
